A study of Homo sapiens with 2 samples.

Results

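The genes described here encode the heat shock chaperones of the cytosol and of mitochondria, with their helpers and the heat shock factors HSF1 and HSF2. They were listed by name from their families (HSP70 and HSP110, HSP90, the J proteins or HSP40, small heat shock proteins, BAG proteins and the CCT ring), leaving out the chaperones of the endoplasmic reticulum. The list held 39 genes. Of these, 36 were read by a probe that the platform annotation assigns to a single gene, out of 18417 genes measured that way. HSPA1A and HSPA1B had probes only in common, and HSF2 had no probe in the annotation used here. The samples were HepG2 cells, a human hepatoma line. There was 1 array of control cells, for which no dose is given. The other was 1 array of cells kept for 24 h in medium with 100 mg/L of amorphous silica nanoparticles (SiO2-NP). The labels do not say how many cultures or flasks stood behind an array, whether the control received the particles' vehicle, or how large the particles were.

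Chaperones bind proteins that are unfolded or not yet folded, keep them from clumping and help them reach their shape. HSP70 proteins do this in cycles of ATP use, in which J proteins bring the client and start the cycle, and BAG and HSP110 proteins release the nucleotide to end it. When unfolded protein builds up, for instance after heat, HSF1 forms trimers that bind repeats of the bases GAA in alternating direction (heat shock elements) and switch on HSPA1A, HSPA6, DNAJB1, BAG3, HSPB1 and others, so the level of these transcripts is a common reading of protein damage in the cytosol.

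The promoters of the list show how many of its genes carry such elements. RefSeq windows of 300 bases in GRCh38.p14, from 250 bases before to 50 bases after an annotated start, were found for 36 of the 39 genes (52 windows, since some genes have several starts). CCT6A, HSF1 and HSPA14 had none in that table. A pair of units in either order, GAANNTTC or TTCNNGAA, which read the same on both strands, stood in at least 1 window of 22 of the 36 genes, or 61.1%, against 16.2% of all 27305 genes in the table. Per window the share was 44.2%, against 13.5% of all 35116 windows. A run of 3 alternating units, which contains the pairs, stood in a window of 8 of the 36 genes, against 0.608% of all genes. A match is a match of letters and not a measured binding site.

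The 8 genes with 3 units in a row are shown by the 30 bases around the run nearest to the start, because they are the members whose promoters carry the fullest match. Capitals mark the alternating GAA and TTC units and the bases between them; HSPD1 and CHORDC1 have 4 units in the stretch shown. The stretches lie at chr1:161524458-161524487 on the + strand (HSPA6), chr11:123062170-123062199 on the - strand (HSPA8), chr14:102087111-102087140 on the - strand (HSP90AA1), chr6:44247823-44247852 on the + strand (HSP90AB1), chr2:197500059-197500088 on the - strand (HSPD1), chr9:33025268-33025297 on the + strand (DNAJA1), chr7:157336865-157336894 on the + strand (DNAJB6) and chr11:90223078-90223107 on the - strand (CHORDC1).
HSPA6: cggaaaggTTCGCGAAAGTTCgcggcggcg
HSPA8: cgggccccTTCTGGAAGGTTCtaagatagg
HSP90AA1: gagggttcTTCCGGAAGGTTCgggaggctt
HSP90AB1: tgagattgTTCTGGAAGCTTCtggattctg
HSPD1: attTTCTGGAAAGTTCTGGAAccgagcgag
DNAJA1: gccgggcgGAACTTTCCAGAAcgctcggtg
DNAJB6: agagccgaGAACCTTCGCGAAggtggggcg
CHORDC1: aaaTTCGCGAAGGTTCCTGAAacgcaacgg

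The values are log2 intensities as deposited, and every difference is the SiO2-NP value minus the control value on that scale. Each group held 1 array, so there was no error to test against, and higher and lower describe these 2 arrays and not the conditions. The word expressed is used for the 9209 genes whose average intensity was at or above that of the median gene, 7.26, and it says nothing of detection. Genes of like level are the 250 genes on either side of a gene in the order of average intensity. The arrays read as liver cells: 9 of 10 hepatocyte and hepatoma markers passed the filter (ALB 13.50 in the control and 13.41 after SiO2-NP, AFP 13.06 and 13.04), and HNF4A had no single-gene probe here. Only 1 of 8 fibroblast markers, 2 of 7 measured leukocyte markers and 0 of 6 endothelial markers passed. In RNA from a whole culture, fewer cells of one kind and less RNA per cell cannot be told apart.

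The chaperone transcripts differed little between the arrays, and most lay slightly under the control. Of the 39 genes, 33 were expressed, and 26 of these were below the control and 7 above. Over all expressed genes 59.8% were below. The median difference was -0.09 over the 33 members, with a range of -0.31 to 0.32, and -0.03 over all expressed genes. No member reached 1.5-fold in either direction, which 0.391% of the expressed genes did. HSPB1 alone was at least 1.2-fold higher (2.99% of expressed genes), and 3 members, DNAJB4, BAG5 and DNAJA2, were at least 1.2-fold lower (7.53% of expressed genes). The split of 7 above to 26 below depended on the scaling and was 12 to 21 after quantile normalization, 11 to 22 against a running median of genes of like level and 4 to 29 after centring on the median of all probes. The share of all expressed genes below moved with it and was 46.4%, 49.9% and 70.6% in the same order. The distance between the member median and the median of all expressed genes was -0.06 as deposited and -0.05 after quantile normalization.

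**Figure D1:**
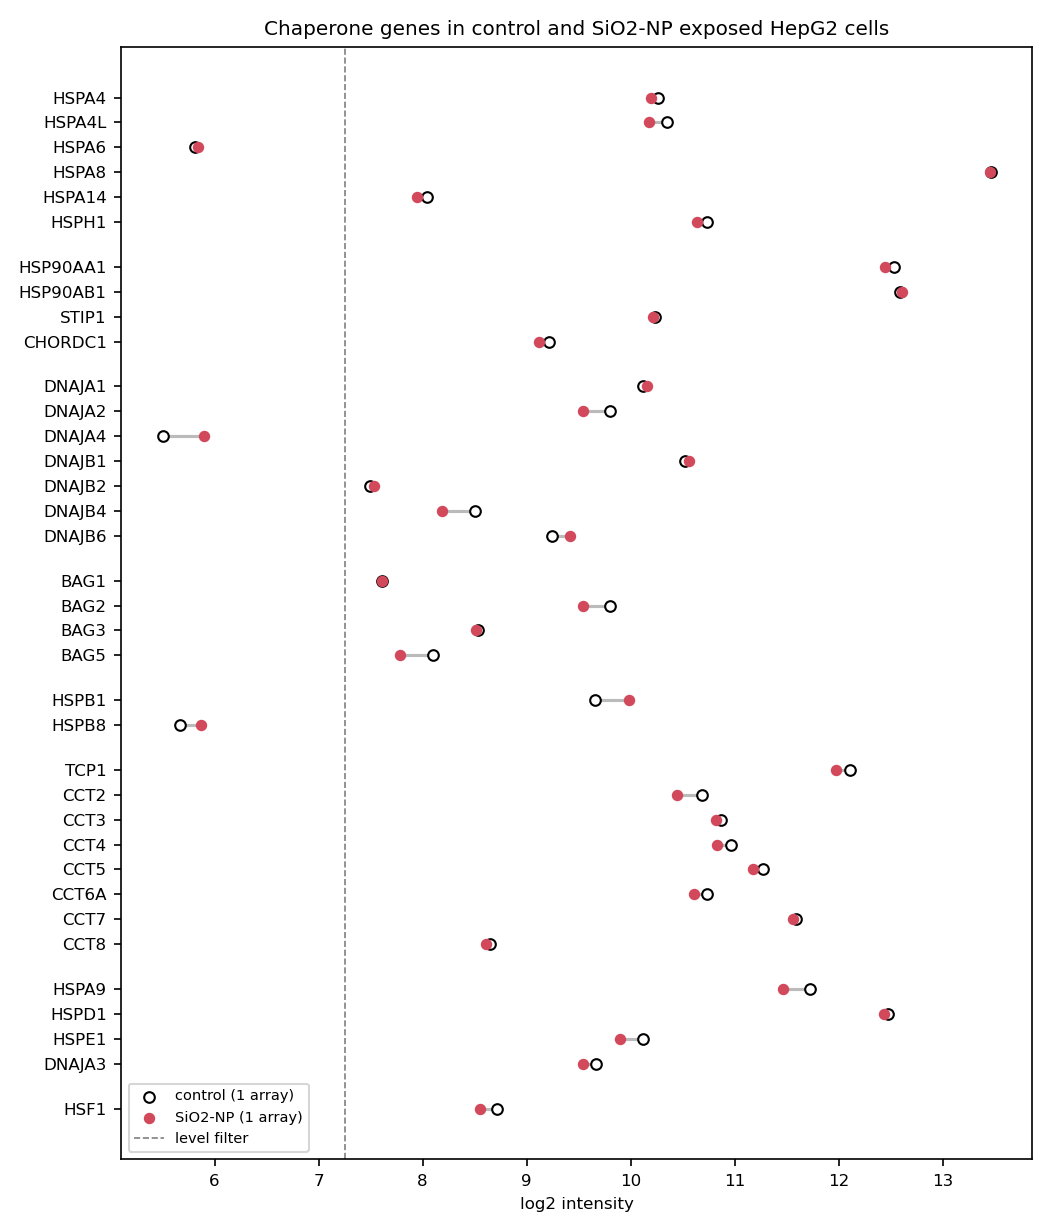
Log2 intensity of the 36 chaperone genes with a single-gene probe, ordered by class; open circles are the control array, red points the SiO2-NP array, and the dashed line is the level filter at 7.26. Each pair lies close together, and HSPA6, DNAJA4 and HSPB8 lie under the filter in both arrays.

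The inducible HSP70 genes gave nearly the same reading in both arrays. HSPA1A and HSPA1B, neighbouring copies of the main stress-induced HSP70, shared all 5 of their probes, so the rule for single-gene probes left them out of the expression counts as deposited. These probes fell into 2 sets of close values. The 2 brighter ones read 11.26 and 11.27 in the control and the same after SiO2-NP, and the other 3 read between 10.52 and 10.53 in the control and between 10.53 and 10.54 in the exposed cells. All 5 differences lay between 0.0019 and 0.0082. The probes of a set hold nearly equal values and are not independent readings. HSPA6, an HSP70 that human cells make almost only under stress, read 5.81 in the control and 5.84 after SiO2-NP, under the level filter. A probe that HSPA6 shares with its near copy HSPA7 read 7.38 and 7.47.

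The 250 bases before the starts of HSPA1A (chr6:31815293-31815542, + strand) and HSPA1B (chr6:31827488-31827737, + strand) are printed because no probe told these transcripts apart. In a global alignment 93.6% of 251 columns were identical, and each holds 1 pair of units, in capitals, beside 2 matches to CCAAT on either strand and 1 to TATAAA. Of all windows, 34.6% hold CCAAT and 11.5% hold TATAAA.
HSPA1A: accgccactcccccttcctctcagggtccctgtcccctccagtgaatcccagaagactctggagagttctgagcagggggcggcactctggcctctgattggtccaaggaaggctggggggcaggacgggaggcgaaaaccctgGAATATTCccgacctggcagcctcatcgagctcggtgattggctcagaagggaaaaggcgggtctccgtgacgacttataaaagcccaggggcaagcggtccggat
HSPA1B: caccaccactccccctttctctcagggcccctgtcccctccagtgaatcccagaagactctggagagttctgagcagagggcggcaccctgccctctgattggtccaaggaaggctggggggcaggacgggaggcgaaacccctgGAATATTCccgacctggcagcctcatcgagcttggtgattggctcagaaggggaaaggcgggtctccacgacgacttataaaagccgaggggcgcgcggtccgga

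The other cytosolic HSP70 and HSP110 genes were slightly below the control. HSPA8, the constitutive HSP70 of the cytosol, read 13.46 in the control and 13.45 after SiO2-NP, a difference of -0.0067 that turned positive under quantile normalization and against the running median. HSPA14, an HSP70 bound to ribosomes, read 8.04 and 7.95. The HSP110 proteins act as exchange factors of HSP70. Among them HSPH1 read 10.73 and 10.64, HSPA4 read 10.26 and 10.19, and HSPA4L read 10.35 and 10.17, the largest difference of the class at -0.18. The class had 5 expressed genes, all below the control as deposited, and its median difference was -0.09. Of all expressed genes 59.8% were below the control.

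The HSP90 genes and the helpers on the list, STIP1 and CHORDC1, differed by at most 0.09 in size; HSP90 co-chaperones outside the list are described further below. HSP90AA1, the stress-inducible form of cytosolic HSP90, read 12.53 in the control and 12.44 after SiO2-NP. HSP90AB1, the constitutive form, read 12.59 and 12.61, and its small positive difference turned negative after centring on the median of all probes. STIP1 (HOP), which hands clients from HSP70 to HSP90, read 10.24 and 10.22. CHORDC1, an HSP90 partner that also responds to heat, read 9.21 and 9.12. The 4 genes had a median difference of -0.05.

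J proteins, which choose the clients of HSP70, were the class with the widest spread. DNAJB1, the classic heat-induced J protein, read 10.52 in the control and 10.56 after SiO2-NP (-0.0024 in place of 0.04 once centred on the median of all probes), and DNAJA1, its partner in many folding reactions, read 10.12 and 10.16. DNAJB2, a form known from neurons, read 7.49 and 7.54. DNAJB6, which holds back the aggregation of polyglutamine proteins, had the largest positive difference among the expressed genes of the class, from 9.25 to 9.42, or 1.13-fold higher, and both of its probes were higher (0.22 and 0.12). DNAJA2, by contrast, read 9.80 and 9.54. DNAJB4 had the largest negative difference of all members, from 8.50 to 8.19, or 1.24-fold lower. DNAJA4 read 5.50 and 5.90, a difference of 0.40 at a level under the filter. Without the filter 8.26% of all measured genes were at least 1.2-fold higher, and genes of like level to DNAJA4 had a median of 0.09. Of the 6 expressed J proteins, 4 were above the control and 2 below, beside 59.8% below over all expressed genes. Their median was 0.04, and -9.2e-05 after centring on the median of all probes.

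Among the BAG proteins, which release nucleotide and client from HSP70, 2 genes were close to the control and 2 were lower. BAG3, the heat-induced member that steers clients to autophagy together with HSPB8, read 8.53 in the control and 8.52 after SiO2-NP. BAG1, which links HSP70 to the proteasome, read 7.61 in both. BAG2, an inhibitor of the ubiquitin ligase CHIP, read 9.80 and 9.55. BAG5, built from several BAG domains, read 8.10 and 7.79, or 1.24-fold lower.

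The small heat shock protein HSPB1 (HSP27) was the gene with the largest positive difference among the expressed members. It binds unfolding proteins without ATP and protects actin filaments. It read 9.66 in the control and 9.98 after SiO2-NP, or 1.25-fold higher, and it lay at percentile 98.7 of genes of like level. It was the 1 of 33 expressed members outside the central 95% of genes of like level. That is no larger a share than the 5.15% of all expressed genes that lie there. HSPB1 is read by 1 probe, so no second probe could be set beside it. HSPB8 (HSP22), the partner of BAG3, read 5.67 and 5.87 under the level filter, at percentile 73.8 of genes of like level.

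The 250 bases before the start of HSPB1 (chr7:76302423-76302672, + strand) are shown because it had the largest positive difference among expressed members. The capitals mark its 1 pair of units, which begins 182 bases before the start; no run of 3 units was found in this window.
HSPB1: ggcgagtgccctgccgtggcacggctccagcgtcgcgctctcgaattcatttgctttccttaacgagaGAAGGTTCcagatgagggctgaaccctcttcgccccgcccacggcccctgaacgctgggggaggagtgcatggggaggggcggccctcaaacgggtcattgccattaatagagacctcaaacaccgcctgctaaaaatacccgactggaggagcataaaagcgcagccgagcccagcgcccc

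**Figure D2:**
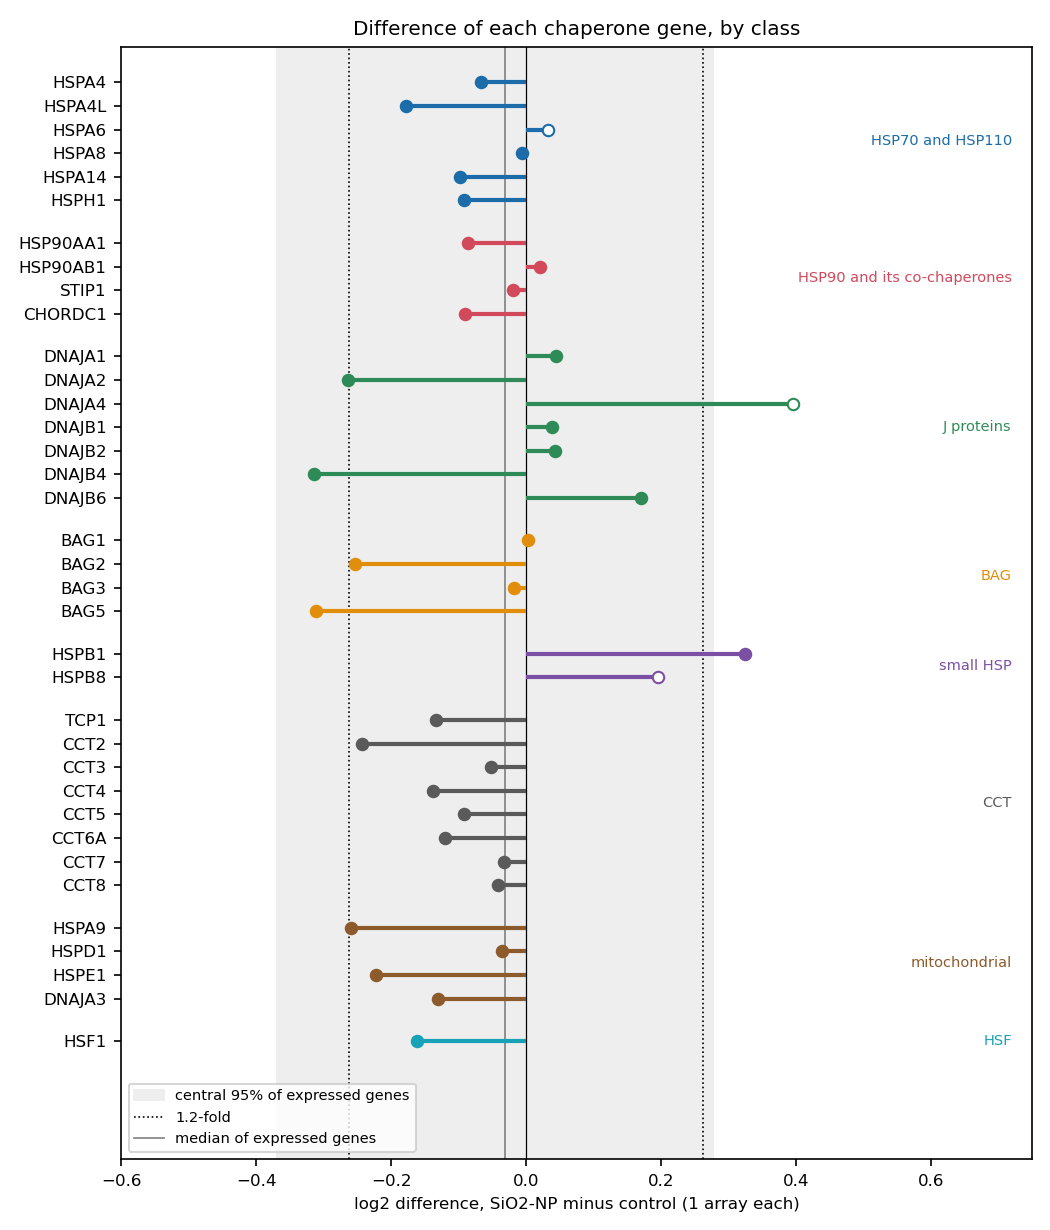
Log2 difference, SiO2-NP minus control, of each of the 36 genes, coloured by class; filled points passed the level filter, open points did not, the grey band is the central 95% of expressed genes (-0.37 to 0.28) and dotted lines mark 1.2-fold. HSPB1 and, among the open points, DNAJA4 (0.40) lie above the band, though DNAJA4 is inside the central 95% of genes of its own level (percentile 96.3). All 8 CCT genes and all 4 mitochondrial genes lie left of 0, as do 59.8% of all expressed genes, and the J proteins spread to both sides.

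The CCT genes encode the 8 subunits of a ring that folds actin and tubulin. All 8 lay below the control as deposited, beside 59.8% of all expressed genes. CCT2 had the largest difference, from 10.69 to 10.44 (-0.24). CCT4 read 10.97 and 10.83, TCP1, the founding subunit, read 12.11 and 11.97, and CCT6A read 10.73 and 10.61. CCT5 read 11.27 and 11.18, and CCT3 read 10.87 and 10.82. CCT8 (8.65 and 8.61) and CCT7 (11.59 and 11.56) lay nearest to the control. The median was -0.11, and -0.06 after quantile normalization, under which CCT7 and CCT8 were above the control. After subtraction of the running median by level, 7 of the 8 were below it, against 49.9% of expressed genes, and CCT8 was above by 0.0011.

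The 4 mitochondrial chaperones were also all below the control, and all below genes of like level. Over all expressed genes these shares were 59.8% and 49.9%. The median of the 4 was -0.18, the lowest of the classes with more than 1 expressed gene, and -0.12 after quantile normalization. HSPA9 (mortalin), the HSP70 that pulls proteins into mitochondria, read 11.73 in the control and 11.47 after SiO2-NP; it lay at percentile 4.49 of genes of like level. Its difference of -0.259 was the first short of the 1.2-fold line, and that of DNAJA2, -0.264, the last past it. DNAJA3, its J protein, read 9.67 and 9.54. HSPE1, the lid of the mitochondrial folding chamber, read 10.12 and 9.90, a difference of -0.22. HSPD1, the chamber itself (HSP60), read 12.47 and 12.44, a difference of -0.04.

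HSPD1 and HSPE1 lie head to head and share 1 promoter, which is shown because their differences were unequal. The 104 bases between an annotated start of each (chr2:197500275-197500378, printed on the + strand, that of HSPE1) hold neither pair of units; the 4 units printed above lie in the window of a second HSPD1 start.
HSPD1-HSPE1: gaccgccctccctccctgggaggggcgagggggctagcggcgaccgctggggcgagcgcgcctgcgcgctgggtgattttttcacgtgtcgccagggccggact

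HSF1, the factor that drives the heat shock response, read 8.71 in the control and 8.55 after SiO2-NP, a difference of -0.16 at percentile 18.9 of genes of like level. HSF1 is controlled mainly through its protein, so its transcript level is no measure of its activity.

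Members taken from textbooks as heat-inducible had a median difference of -0.04. They were HSPA1A, HSPA1B, HSPA4L, HSPA6, HSPA8, HSPB1, HSPB8, HSP90AA1, HSPD1, HSPE1, HSPH1, DNAJA1, DNAJA4, DNAJB1, DNAJB4, BAG3, CHORDC1 and STIP1. The split rests on this choice, which counts HSPA8 here and HSP90AB1 and DNAJB6 among the other members. Of the 18 heat-inducible genes, 16 were measured and 13 expressed; 10 were below the control and 3 above (HSPB1, DNAJA1 and DNAJB1). All expressed genes had 59.8% below and a median of -0.03. Against genes of like level the 13 split 7 below to 6 above. The 3 that the filter left out, HSPA6, HSPB8 and DNAJA4, were all above the control as deposited. Over the 16 measured, 10 were below and 6 above, with a median of -0.02 in place of -0.04. Of all measured genes 47.6% were below. Against genes of like level the 16 split 8 to 8. The 20 expressed other members had a median of -0.11, with 16 below the control and 15 below genes of like level. The 8 genes with 3 units in a row ranged from -0.09 to 0.17, and the 7 of them that were expressed had a median of -0.0067, with 4 below and 3 above. The other 23 expressed genes with a promoter window had a median of -0.09, with 19 below. These are not genes without heat shock elements. They include HSPB1 and DNAJB1, which have a pair of units, and HSPE1, which shares a promoter with HSPD1. The lists were drawn up with earlier results of these arrays known, and the difference between these groups was not tested.

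**Figure D3:**
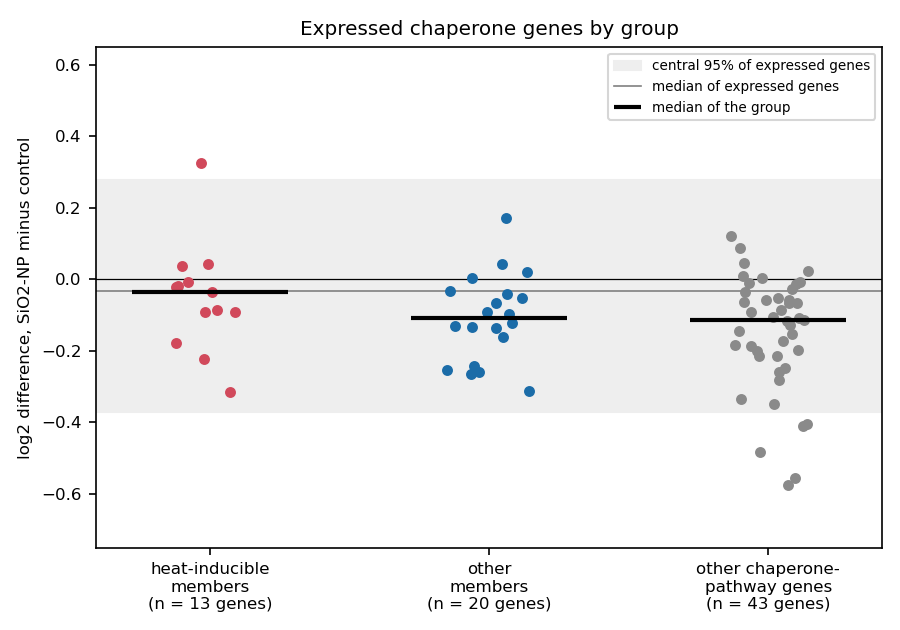
Log2 difference, SiO2-NP minus control, of expressed genes in 3 groups: 13 heat-inducible members, 20 other members and 43 other chaperone-pathway genes. Each point is 1 gene, black bars are group medians (-0.04, -0.11 and -0.11), and the grey band is the central 95% of all expressed genes; the lowest points belong to the other chaperone-pathway genes.

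The wider chaperone pathway, in 63 listed genes that are not members, was mostly below the control. Of 43 expressed genes, 37 were below and 6 above, with a median of -0.11, beside 59.8% below among all expressed genes. Against the running median of genes of like level the split was 33 below to 10 above. None was 1.2-fold higher (2.99% of expressed genes) and 8 were at least 1.2-fold lower (7.53%). The 3 lowest were PPID (cyclophilin 40), an HSP90 co-chaperone, at 8.33 in the control and 7.75 after SiO2-NP (-0.58), RPAP3, which tethers HSP90 to the assembly of polymerases and small nucleolar particles, at 8.12 and 7.56 (-0.56), and VBP1, a subunit of prefoldin, at 8.09 and 7.61 (-0.48). The 3 highest were mitochondrial: AFG3L2, a protease of the inner membrane (0.12), GRPEL2, an exchange factor of HSPA9 (0.09), and TRAP1, the mitochondrial HSP90 (0.05).

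By function, the 8 expressed genes of prefoldin, which delivers actin and tubulin to the CCT ring, and of the phosducin-like cofactors of that ring had a median of -0.20 and 7 below the control. As deposited, the 11 expressed HSP70 co-chaperones outside the list were all below, with a median of -0.11, but 9 of the 11 were below genes of like level. Of 12 HSP90 co-chaperones 11 were below, with a median of -0.12, and 10 were below genes of like level. Over all expressed genes 59.8% were below the control and 49.9% below genes of like level. The 10 further mitochondrial genes split 4 above to 6 below, with a median of -0.09, and 5 above to 5 below against genes of like level. No small heat shock protein outside the list passed the level filter; among the 5 measured, HSPB7 had the largest difference, from 5.72 to 6.14, and was named after its value was seen.

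**Figure D4:**
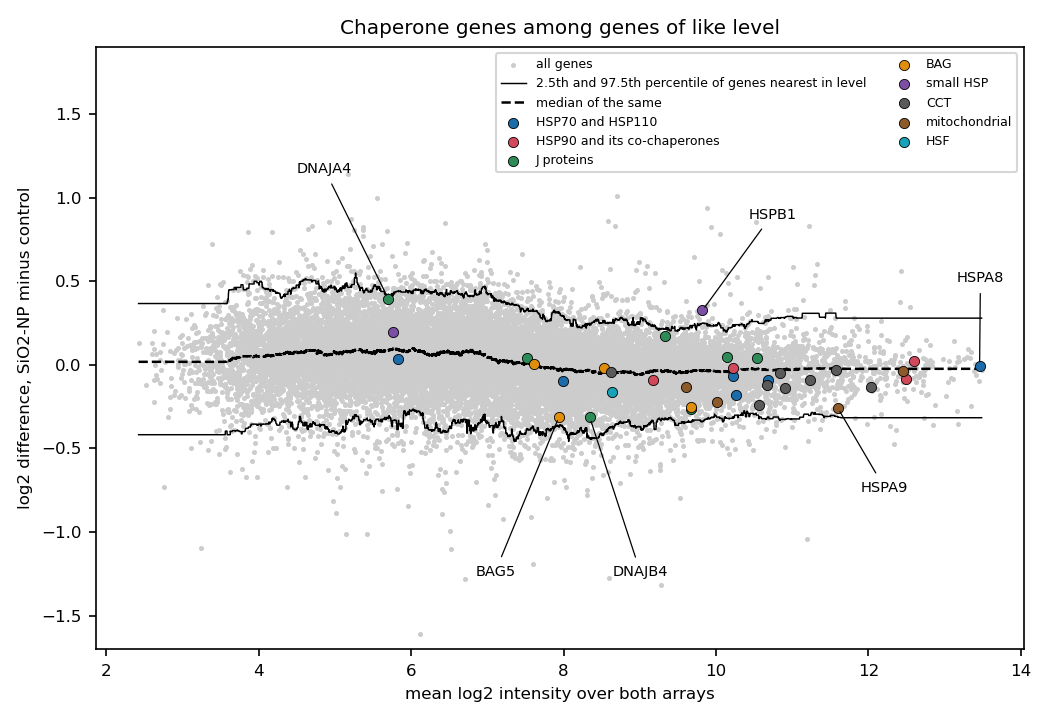
Log2 difference between SiO2-NP and control against the mean log2 intensity over both arrays for all 18417 genes (grey) and the 36 chaperone genes (coloured by class); lines give the median and the central 95% of genes of like level. The running median is above 0 among dim genes and slightly below 0 among bright ones, and of the 36 genes HSPB1 alone lies outside the lines.

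The level of a gene moved with its difference across the arrays, as the plot against mean intensity shows. Without the level filter 47.6% of all genes were below the control, and 6.47% were at least 1.2-fold lower. The 3 dim members HSPA6, HSPB8 and DNAJA4 were above the control as deposited, though HSPA6 was below it under each of the 3 other scalings, and over all 36 measured members 26 were below and 10 above, with a median of -0.08. Relative to the running median by level, 22 of the 33 expressed members were below. Agreement between probes gives a rough scale for single values: among 329 expressed genes read by 2 probes, the differences of the pair were apart by 0.08 at the median and by 0.42 at the 95th percentile. Every measured member's difference is smaller in size than the second value. These gaps compare probes within the same 2 arrays and hold no variation between arrays or cultures, so they set no limit of error. They also come from expressed genes only, which the 3 dim members are not.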

How the data were processed

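Total RNA of 2 HepG2 samples was hybridised to Affymetrix arrays from about 300 ng, per the labels' protocols. The deposited values are log2 intensities per probe (transcript cluster), a scale read from their range; RMA and MAS5 are named per the submitters' processing notes, while the one that made the values, its version and the genome build were not given in the sources used here. Applied to whole arrays, RMA would level out a change common to most transcripts. Of 33297 probes, 19460 had 1 gene symbol, 1754 several and 12083 none in the platform annotation; single-symbol probes were averaged per gene. Every measured member is named, and of the other pathway genes the 3 highest and 3 lowest expressed. The members and lists were chosen with earlier results of these data known. Promoters come from RefSeq (GRCh38.p14); HSPA1A and HSPA1B were aligned globally (match 1, mismatch -1, gap open -2, gap extension -1). A comparison of protein sequences was planned and not made. Array depth does not apply; their number limits the precision. The averaging, counting and scaling steps were run on control values with planted differences and no noise, which checks their arithmetic only. Promoter matching and the alignment were not tested in this way. The software was Python 3.11.15 with pandas 2.3.3, NumPy 2.4.6 and, for plots, matplotlib 3.10.9.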

Additional observations from a re-analysis of the deposited data

How the results depend on the processing

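A value counted as moved when it changed by more than 0.08, the median gap between 2 probes of a gene, and a count when it changed by more than 1.5 times. Members above the control numbered 7 as deposited, 4 after centring on the median, 12 after quantile normalization and 11 relative to the running median. In the same order, 59.8%, 70.6%, 46.4% and 49.9% of all expressed genes were below. Members at least 1.2-fold lower numbered 3 as deposited, 6 after centring on the median, 1 after quantile normalization and 1 when the level filter was raised to the 75th percentile. As deposited, 7.53% of all expressed genes were that much lower. This share was not counted under the other settings, so those counts cannot be set against it. Without the filter, 2 members were at least 1.2-fold higher in place of 1, beside 8.26% of all measured genes in place of 2.99% of the expressed ones. At a threshold of 2-fold there were 0 higher and 0 lower, and 5 of the 9209 expressed genes passed it in either direction. The BAG median was -0.25 with the stricter filter, which leaves fewer genes, against -0.14. The stricter filter also drops DNAJB4 and BAG5 from the members at least 1.2-fold lower, and leaving the filter off adds DNAJA4 to those higher. Centring lowers every difference by the same amount, which takes HSPA9, BAG2 and CCT2 past 1.2-fold. For the changes under quantile normalization and the running median the cause was not tested. The member median stayed below 0 under all 7 alternatives run for it on filter, scaling and probes (-0.13 to -0.04) and as a mean (-0.09). Over 36 members and 5 settings, 177 of 180 differences moved less than 0.08, but most of these could not have moved further. Taking the brightest probe altered only DNAJB6, and counting probes with several symbols altered only HSPA6. Centring shifted every member by the same amount, which is under 0.08. The count is therefore no measure of robustness. The 15 changes of sign were all in genes whose deposited difference was 0.04 or less in size. Pseudocounts were not needed on log2 values. No paired analysis was possible because there was a single array per group, and no replicate could be left out.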
